A study of Mus musculus with 14 samples.

Results

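The genes described here are 50 genes of mitosis and of the G2/M transition. They were chosen by name for their known roles in cell division, with earlier results of these data known. All 50 were among the 20343 genes tested on the arrays, and each was found through the RefSeq accession of its probes. RNA had been measured on one-colour microarrays in C57BL/6 mouse peritoneal macrophages sorted for CD11b and for the macrophage antigen that Adgre1 encodes. The mice had been injected into the peritoneum with 2 ml of 4% thioglycollate together with IL-4 complex (THIO+IL-4C, 4 arrays), with IL-4 complex alone (IL-4C, 4 arrays), with 2 ml of 4% thioglycollate alone (THIO, 3 arrays), or with the PBS vehicle (PBS, 3 arrays). IL-4 complex (IL-4c in the labels) was 5 µg of the cytokine with 25 µg of its antibody 11B11, which prolongs the activity of the cytokine in the animal. Thioglycollate medium causes a sterile inflammation that draws blood monocytes into the peritoneum, and per the series' design text the study compared tissue-derived with monocyte-derived macrophages. The time between injection and collection was not stated in the labels. Nor do they say whether each array had its own mouse, and the p-values thus reflect the scatter among these arrays, which may be technical.

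Entry into mitosis is driven by the kinase CDK1 bound to cyclin A or B. The Aurora and Polo kinases then build the spindle, kinetochores attach chromosomes to it, the spindle checkpoint holds the anaphase-promoting complex inactive until attachment is complete, and separase cuts cohesin to release the sister chromatids. Transcripts of most of these proteins accumulate late in the cell cycle under the DREAM and MuvB complexes with B-Myb and FOXM1, and are low in quiescent cells. Tissue macrophages are known to be able to divide in place, and IL-4 is known to drive such local division in the mouse. In RNA of a whole sorted population, a change in the number of dividing cells and a change in RNA per cell cannot be told apart.

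Levels are log2 of the background-subtracted signal minus the upper quartile of all probes of that array, so they can be compared between arrays for 1 gene but not between genes. All 50 genes were well above background on every THIO+IL-4C and every IL-4C array, 47 on every THIO array and 48 on every PBS array. The exceptions were Ttk, Aurkb and Cenpf in THIO and Aurkb and Cenpf in PBS, each of which was still well above background on at least 1 array of the group. THIO 1 stood apart: across genes its correlation was 0.848 with THIO 2 and 0.865 with THIO 3, against 0.984 between those arrays and 0.956 to 0.987 within the other groups. THIO 1 shared slide 1 with all IL-4C and PBS arrays, and THIO 2, THIO 3 and all THIO+IL-4C arrays were on slide 2. For comparisons with THIO the total counts of the 50 genes called are therefore given with and without THIO 1. The number of all genes called also changed when arrays were left out, so such counts do not set the 50 genes against all genes. The upper quartile of the signal was 2044 to 2549 in THIO+IL-4C, 3059 to 3883 in IL-4C, 2294 to 3578 in THIO and 1275 to 1819 in PBS arrays. The sorted cells had high levels of the genes that name the sort, Itgam (CD11b) and Adgre1, which averaged 4.23 ± 0.09 and 3.53 ± 0.12 in THIO+IL-4C, 5.79 ± 0.07 and 6.27 ± 0.06 in IL-4C, 4.14 ± 0.16 and 4.73 ± 0.05 in THIO, and 5.95 ± 0.13 and 6.54 ± 0.09 in PBS (SD, n = 4, 4, 3 and 3).

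Over the 50 genes, the groups stood in a clear order. The median level of the genes was 0.28, 0.14, 0.07 and 0.13 on the THIO+IL-4C arrays, 2.43, 2.24, 2.57 and 2.44 on the IL-4C arrays, -1.64, -1.42 and -1.84 on the THIO arrays, and -0.69, -1.24 and -0.51 on the PBS arrays. The arrays of the 4 groups did not overlap in this median, with IL-4C highest and THIO lowest. For 36 genes the group means followed the same order, IL-4C above THIO+IL-4C above PBS above THIO, and in 8 more (Mad2l1, Aurkb, Cdca8, Tpx2, Cenpa, Nuf2, Spc25 and Mybl2) THIO stood above PBS. In 4 genes (Incenp, Kif18b, Cenpf and Hmmr) PBS stood between IL-4C and THIO+IL-4C, with THIO lowest, and in Pttg1 and Espl1 THIO+IL-4C was the lowest group and lay below PBS. The mean was highest in IL-4C for 49 genes, the exception being Pttg1. The median SD of the 50 genes was 0.17 in THIO+IL-4C, 0.12 in IL-4C, 0.61 in THIO and 0.42 in PBS, where all genes had medians of 0.18, 0.14, 0.47 and 0.15. The genes thus spread more than most among the PBS arrays, PBS 2 lying below PBS 1 and PBS 3 in the median.

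**Figure D1:**
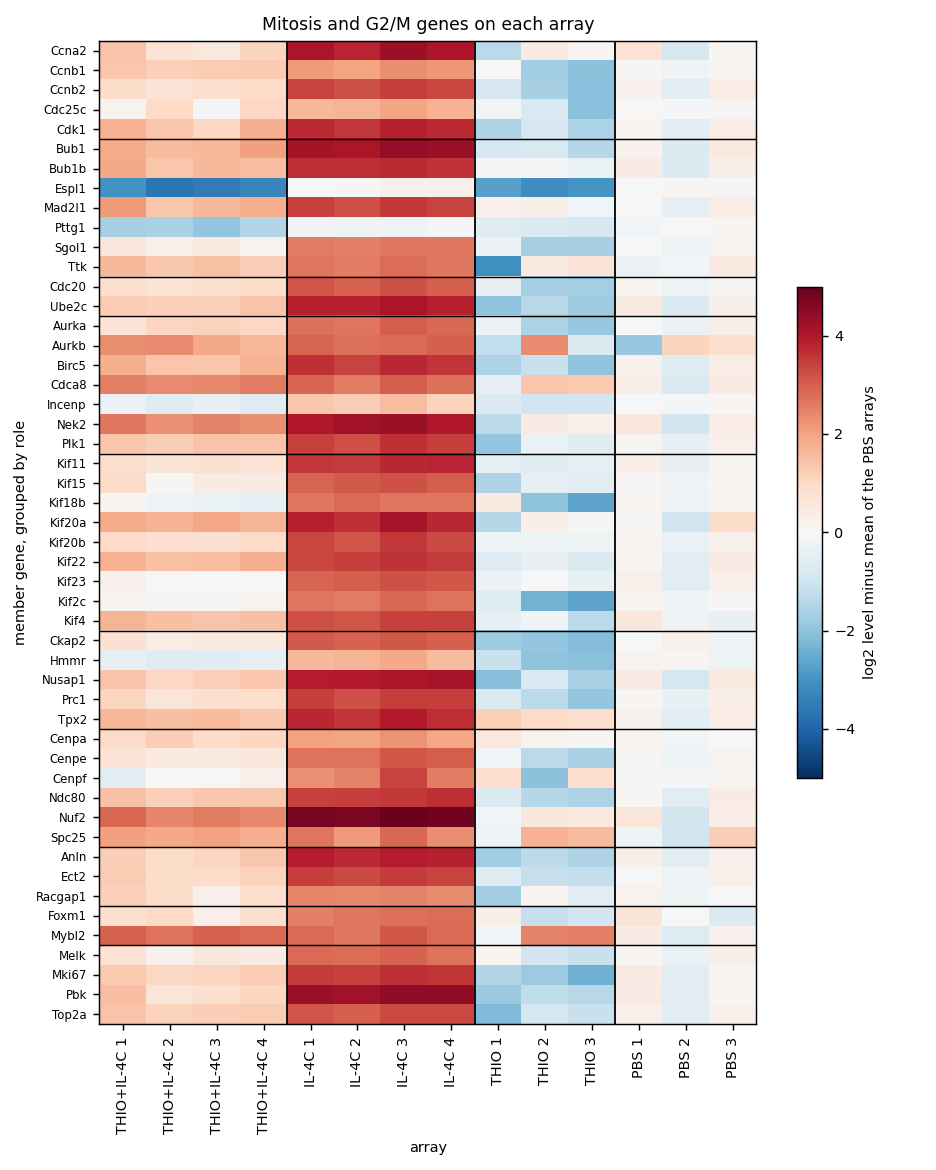
Log2 level of each of the 50 genes on each of the 14 arrays, minus the gene's mean over the 3 PBS arrays; columns are arrays by group and rows are genes grouped by role, with red above and blue below the PBS mean. Nearly all rows are darkest red in the IL-4C columns and paler red in the THIO+IL-4C columns, while the rows of Espl1 and Pttg1 are not.

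Many of the genes have promoters with the same short motifs, and some of these are shown here because the genes moved together. RefSeq's promoter table (build GRCm38.p6, 250 bases before to 50 after each listed start) held 44 promoters of 42 of the genes. Ccna2, Tpx2, Pbk, Cdc25c, Incenp, Kif20a, Aurkb and Foxm1 were not matched. The cell cycle genes homology region (CHR), the motif that MuvB complexes bind, was searched as TTTGAA or TTCGAA on both strands, TTCGAA being its own reverse complement. It was found in 34 of the 44 promoters (77.3%), against 59.6% of 52 promoters of other mitosis genes, 20% of 25 promoters of DNA replication genes and 19.2% of all 32851 promoters of the same length. CCAAT, the box bound by NF-Y, was found on either strand in 72.7% of the promoters, against 67.3% in the other mitosis genes, 56% in the DNA replication genes and 37.4% of all promoters. At least 2 CCAAT boxes were present in 47.7%, against 38.5% in the other mitosis genes, 28% in the DNA replication genes and 11.7% of all promoters. A CHR together with a CCAAT box was found in 65.9%, against 42.3%, 16% and 7.52% in the same order. An E2F motif, searched as TTTGGCGC or TTTCGCGC on both strands, was present in 4.55%, against 5.77%, 32% and 0.813%. A match is a description of letters and not evidence of binding.

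The windows below run from 200 bases before to 30 bases after the listed start, 5′ to 3′ on the gene's strand, with CCAAT boxes (ATTGG on the other strand) and CHR motifs in capitals. The last 30 bases lie in the first exon of transcripts from that start. Bub1, Ube2c and Cdc20 carry both motifs and rose with IL-4 complex. In Ube2c the first capitals hold 2 overlapping CCAAT boxes, 1 on each strand.
Bub1, chr2:127831830-127832059, minus strand: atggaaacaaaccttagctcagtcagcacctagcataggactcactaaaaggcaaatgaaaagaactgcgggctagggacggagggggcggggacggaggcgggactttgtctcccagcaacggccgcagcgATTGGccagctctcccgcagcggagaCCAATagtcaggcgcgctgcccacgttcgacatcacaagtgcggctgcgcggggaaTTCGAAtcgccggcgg
Ube2c, chr2:164769729-164769958, plus strand: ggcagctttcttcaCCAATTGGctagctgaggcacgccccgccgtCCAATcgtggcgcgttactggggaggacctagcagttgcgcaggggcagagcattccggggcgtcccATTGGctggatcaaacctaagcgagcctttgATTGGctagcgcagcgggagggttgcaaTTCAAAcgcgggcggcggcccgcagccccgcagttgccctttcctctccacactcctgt
Cdc20, chr4:118437314-118437543, minus strand: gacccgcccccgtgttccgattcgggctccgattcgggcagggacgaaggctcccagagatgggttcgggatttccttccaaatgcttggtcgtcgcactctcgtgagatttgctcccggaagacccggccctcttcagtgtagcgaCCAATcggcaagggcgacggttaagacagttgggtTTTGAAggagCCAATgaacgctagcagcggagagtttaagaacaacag
The other 3 windows are of the genes at the ends of the response to IL-4 complex: Nuf2, with the largest difference, and Espl1 and Pttg1, which were not called. Espl1 carries both motifs, while Nuf2 and Pttg1 carry neither in this window. The start listed for Pttg1 lies inside the gene, which reaches upstream to chr11:43427463. Sequence before that outer start was not searched.
Nuf2, chr1:169531435-169531664, minus strand: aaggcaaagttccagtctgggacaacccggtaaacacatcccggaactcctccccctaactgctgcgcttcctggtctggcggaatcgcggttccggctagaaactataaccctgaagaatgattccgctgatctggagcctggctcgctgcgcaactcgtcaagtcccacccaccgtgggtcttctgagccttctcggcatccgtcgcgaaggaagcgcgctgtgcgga
Espl1, chr15:102296093-102296322, plus strand: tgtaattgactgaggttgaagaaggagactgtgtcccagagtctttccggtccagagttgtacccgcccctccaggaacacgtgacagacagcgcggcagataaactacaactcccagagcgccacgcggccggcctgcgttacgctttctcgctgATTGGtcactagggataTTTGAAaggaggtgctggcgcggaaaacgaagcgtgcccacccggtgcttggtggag
Pttg1, chr11:43425952-43426181, minus strand: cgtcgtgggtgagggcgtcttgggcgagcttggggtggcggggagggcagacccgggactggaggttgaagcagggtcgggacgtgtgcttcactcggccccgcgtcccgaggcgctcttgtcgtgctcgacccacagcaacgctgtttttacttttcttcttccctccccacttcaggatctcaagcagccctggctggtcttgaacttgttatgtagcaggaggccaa

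IL-4 complex without thioglycollate raised almost the whole set. Of the 50 genes 48 were called higher in IL-4C than in PBS and none lower, at a limma adjusted p under 0.05, while 16.9% of all genes tested were called higher and 15.3% lower. The median difference of the 50 genes was 3.11 on the log2 scale, against -0.01 over all genes, and ran from -0.17 for Pttg1 to 4.79 for Nuf2. Every IL-4C array was above every PBS array for 48 of the genes, and for 26.4% of all genes, and below for none, where 26.9% of all genes were. The 2 genes that were not called encode the pair that triggers anaphase: Espl1 encodes separase, the protease that cuts cohesin, and Pttg1 encodes securin, its inhibitor. By the log2 values that the authors deposited, 49 of the genes were called higher and all 50 differences were positive, that of Pttg1 included. All IL-4C and PBS arrays were on slide 1.

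The cyclins and CDK1 rose in IL-4C. Ccna2, which encodes cyclin A2, had log2 levels of 1.08, 0.34, 0.20 and 0.80 on the THIO+IL-4C arrays, 3.73, 3.48, 3.96 and 3.72 on the IL-4C arrays, -1.67, 0.07 and -0.19 on the THIO arrays and 0.39, -1.15 and -0.24 on the PBS arrays. Its IL-4C arrays stood above all others, and its THIO and PBS arrays overlapped. It rose 16.7-fold in IL-4C over PBS (log2 difference 4.06, SE 0.43, adjusted p = 1.8e-05). Ccnb1, the gene of cyclin B1, was at 1.75, 1.57, 1.67 and 1.70 in THIO+IL-4C, at 2.52, 2.36, 2.71 and 2.54 in IL-4C, at 0.41, -1.35 and -1.66 in THIO and at 0.44, 0.19 and 0.50 in PBS. Here the groups treated with IL-4 complex lay closer together, THIO 1 lay at the level of the PBS arrays, and the difference of IL-4C from PBS was 2.16 (SE 0.37, adjusted p = 0.00072). The gene of its relative cyclin B2, Ccnb2, was at 1.58, 1.35, 1.48 and 1.68 in THIO+IL-4C, 4.06, 3.84, 4.12 and 4.0 in IL-4C, -0.16, -1.01 and -1.41 in THIO, and 0.86, 0.10 and 1.04 in PBS. No array of a group overlapped another group in Ccnb2, and the difference of IL-4C from PBS was 3.34 (SE 0.28). Cdk1 itself had 0.85, 0.47, 0.11 and 0.86 in THIO+IL-4C, 2.81, 2.61, 2.99 and 2.81 in IL-4C, -2.45, -1.76 and -2.50 in THIO, and -0.74, -1.47 and -0.52 in PBS, again with no overlap between groups. It rose 13.1-fold in IL-4C (3.72, SE 0.26, adjusted p = 7.8e-07). Of the other probes of Cdk1, 1 gave a difference of 4.56 and the other was not called, at -0.49 with an SE of 0.98. Cdc25c, whose phosphatase activates CDK1, rose least of these genes, by 1.76 (SE 0.40).

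The genes that start and pace anaphase also rose, apart from securin and separase. Cdc20, the activator that the spindle checkpoint holds back, had levels of 1.19, 1.05, 1.16 and 1.29 in THIO+IL-4C, 3.51, 3.30, 3.54 and 3.34 in IL-4C, -0.02, -1.30 and -1.33 in THIO and 0.48, 0.11 and 0.51 in PBS. Ube2c, the ubiquitin-conjugating enzyme of the anaphase-promoting complex, was at 1.25, 1.19, 1.19 and 1.42 in THIO+IL-4C, 3.87, 3.87, 4.09 and 3.89 in IL-4C, -2.03, -1.38 and -1.78 in THIO and 0.43, -0.75 and 0.29 in PBS. In both genes the 4 groups were separate. The differences of IL-4C from PBS were 3.06 (SE 0.26) for Cdc20 and 3.94 (SE 0.25, adjusted p = 3.2e-07) for Ube2c. Bub1, a checkpoint kinase of the kinetochore, had -1.36, -1.62, -1.57 and -1.14 in THIO+IL-4C, 0.96, 0.87, 1.20 and 1.13 in IL-4C, -4.05, -3.95 and -4.63 in THIO and -3.00, -3.88 and -2.73 in PBS. It rose 18.9-fold in IL-4C over PBS (4.24, SE 0.26, adjusted p = 2.5e-07). Mad2l1, which encodes the checkpoint protein MAD2, was at 1.53, 0.74, 1.03 and 1.23 in THIO+IL-4C, 2.84, 2.63, 2.95 and 2.80 in IL-4C, -0.33, -0.27 and -0.74 in THIO and -0.56, -0.99 and -0.22 in PBS, with THIO and PBS overlapping. The differences of IL-4C from PBS were 3.40 (SE 0.21) for Mad2l1, 3.67 for the checkpoint kinase gene Bub1b, 2.67 for the checkpoint kinase gene Ttk and 2.60 for Sgol1, whose product protects cohesion at centromeres.

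Securin and separase went another way. Pttg1 had levels of 2.09, 2.11, 1.75 and 2.26 on the THIO+IL-4C arrays, 3.58, 3.51, 3.54 and 3.65 on the IL-4C arrays, 3.15, 3.0 and 2.89 on the THIO arrays and 3.61, 3.77 and 3.83 on the PBS arrays. Espl1 had -1.05, -1.64, -1.51 and -1.26 in THIO+IL-4C, 2.02, 2.06, 2.26 and 2.25 in IL-4C, -0.72, -1.10 and -0.94 in THIO, and 1.99, 2.11 and 1.90 in PBS. In both genes IL-4C and PBS overlapped and both thioglycollate groups lay below them. The difference of IL-4C from PBS was -0.17 (SE 0.12, adjusted p = 0.38) for Pttg1 and 0.15 (SE 0.15, adjusted p = 0.55) for Espl1.

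**Figure D2:**
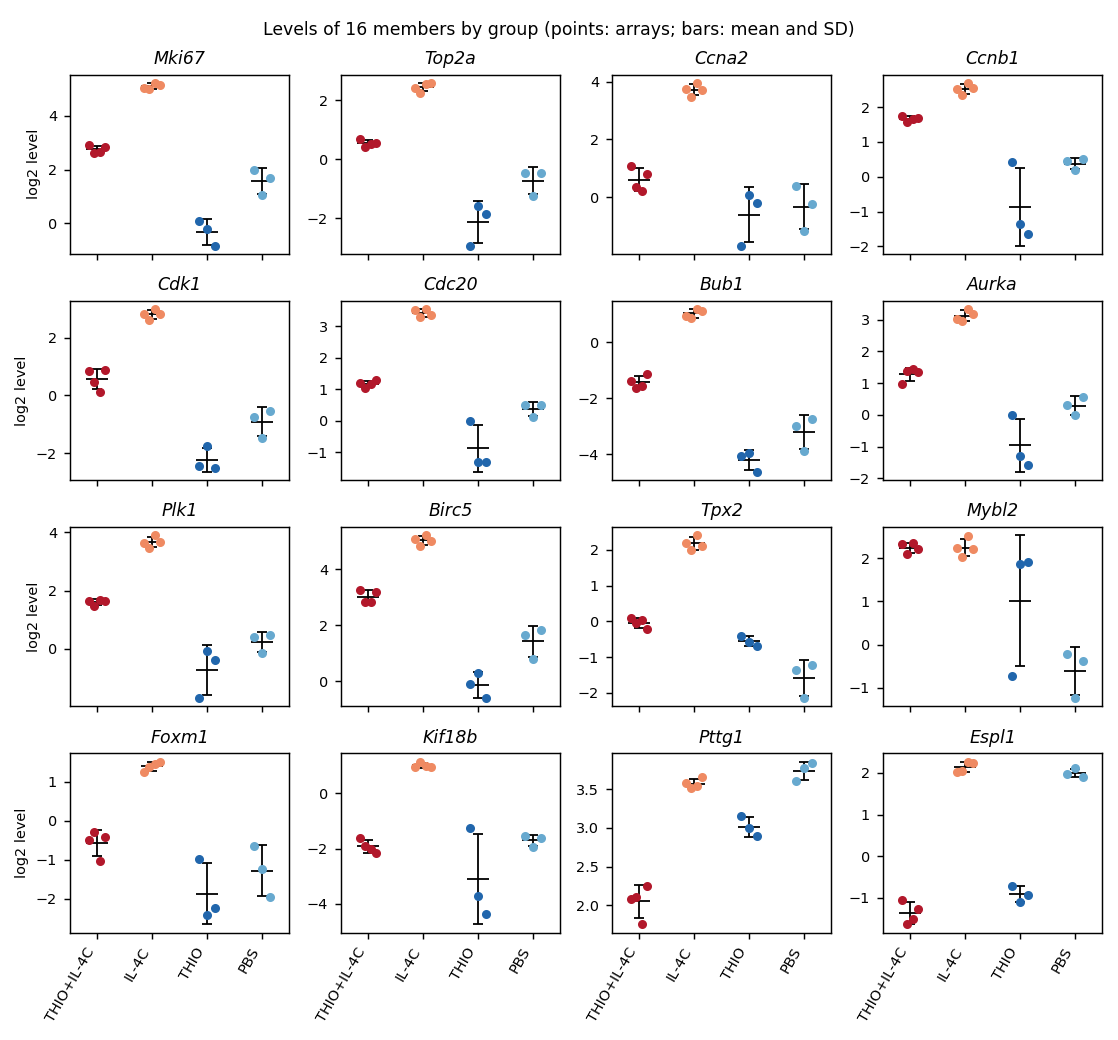
Log2 level of 16 of the genes on each array (points), with the mean and SD of each group (bars); groups on the x axis are THIO+IL-4C, IL-4C, THIO and PBS, and each panel has its own y axis. Each gene is shown by its brightest probe. IL-4C is the highest group in most panels, Mybl2 by this probe has IL-4C level with THIO+IL-4C, and Espl1 and Pttg1 have IL-4C level with PBS.

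Kinases of the spindle and the chromosomal passenger complex, which corrects faulty attachments and later directs cytokinesis, were all called higher in IL-4C than in PBS. Aurka, the Aurora kinase of spindle poles, was at 0.97, 1.38, 1.44 and 1.34 in THIO+IL-4C, 3.03, 2.97, 3.34 and 3.17 in IL-4C, -0.01, -1.29 and -1.58 in THIO and 0.32, -0.01 and 0.57 in PBS. Plk1, the Polo kinase, was at 1.63, 1.46, 1.68 and 1.65 in THIO+IL-4C, 3.65, 3.48, 3.90 and 3.68 in IL-4C, -1.70, -0.09 and -0.37 in THIO and 0.39, -0.16 and 0.48 in PBS. The differences of IL-4C from PBS were 2.83 (SE 0.31) for Aurka and 3.44 (SE 0.31) for Plk1, and 4.14 for Nek2, a kinase of centrosome separation. Birc5 encodes survivin of the passenger complex, and had 3.26, 2.83, 2.82 and 3.17 in THIO+IL-4C, 5.07, 4.82, 5.21 and 5.02 in IL-4C, -0.10, 0.30 and -0.60 in THIO and 1.66, 0.81 and 1.82 in PBS. Its 4 groups did not overlap, and it rose 12.2-fold in IL-4C (3.60, SE 0.26, adjusted p = 8.7e-07). Aurkb, the kinase of that complex, was dim and scattered, at -3.46, -3.40, -3.87 and -4.11 in THIO+IL-4C, -2.85, -3.02, -2.96 and -2.81 in IL-4C, -7.01, -3.43 and -6.49 in THIO and -7.66, -4.68 and -5.0 in PBS. It was well above background on 1 of 3 THIO and 2 of 3 PBS arrays, and its difference of IL-4C from PBS of 2.87 had an SE of 0.82 (adjusted p = 0.018). Of the other passenger genes, Cdca8 (borealin) differed by 2.83 and the scaffold gene Incenp by 1.30.

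All 9 kinesin genes rose in IL-4C over PBS, with a median of 3.29 and a range of 2.70 for Kif2c to 3.85 for Kif20a. Kif11, the motor that pushes spindle poles apart, had -1.90, -2.12, -1.99 and -2.04 in THIO+IL-4C, 0.78, 0.75, 1.0 and 1.04 in IL-4C, -3.20, -3.37 and -3.27 in THIO and -2.43, -3.16 and -2.71 in PBS. Kif20a, a motor of cytokinesis, had 0.47, 0.33, 0.54 and 0.30 in THIO+IL-4C, 2.49, 2.23, 2.70 and 2.35 in IL-4C, -2.84, -1.09 and -1.33 in THIO and -1.33, -2.39 and -0.50 in PBS. The spread within THIO and within PBS was wide for Kif20a and narrow for Kif11, whose difference of 3.66 had an SE of 0.16 (adjusted p = 1.8e-08). The 5 genes of spindle assembly rose too, from 1.70 for Hmmr to 4.02 for Nusap1, which encodes a microtubule-bundling protein.

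At centromeres and kinetochores, where chromosomes meet the spindle, all 6 genes rose. Cenpa, the histone variant that marks centromeres, had 1.54, 1.81, 1.48 and 1.63 in THIO+IL-4C, 2.59, 2.53, 2.83 and 2.52 in IL-4C, 1.08, 0.74 and 0.62 in THIO and 0.69, 0.44 and 0.59 in PBS. It rose 4.13-fold in IL-4C, among the smaller changes of the set (2.05, SE 0.14). Nuf2, a subunit of the NDC80 complex that grips microtubules, had -0.68, -1.14, -0.96 and -1.16 in THIO+IL-4C, 1.19, 1.14, 1.32 and 1.24 in IL-4C, -3.71, -2.99 and -3.09 in THIO and -2.98, -4.50 and -3.24 in PBS. Its 27.7-fold rise in IL-4C (4.79, SE 0.31, adjusted p = 4.0e-07) was the largest of the 50 genes, and its second, dimmer probe was not called (0.49, SE 0.55). The cytokinesis genes Anln, Ect2 and Racgap1, which organise the contractile ring, differed by 3.85, 3.42 and 2.42.

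Both transcription factors of the set, FOXM1 and B-Myb, rose at the RNA level. Foxm1 had -0.50, -0.30, -1.04 and -0.41 in THIO+IL-4C, 1.24, 1.38, 1.46 and 1.52 in IL-4C, -0.97, -2.42 and -2.24 in THIO and -0.65, -1.25 and -1.95 in PBS. Mybl2, the gene of B-Myb, had 2.32, 2.10, 2.35 and 2.22 in THIO+IL-4C, 2.23, 2.03, 2.51 and 2.22 in IL-4C, -0.73, 1.86 and 1.92 in THIO and -0.21, -1.24 and -0.38 in PBS. By the brightest probe of Mybl2, THIO+IL-4C reached the level of IL-4C, and THIO 2 and THIO 3 came near it while THIO 1 lay among the PBS arrays. Its dimmer probe was called lower in THIO+IL-4C than in IL-4C, at -2.09. The differences of IL-4C from PBS were 2.68 (SE 0.36) for Foxm1, whose dimmer probe was not called at 0.28, and 2.86 (SE 0.53, adjusted p = 0.0012) for Mybl2. Mki67, the gene of the proliferation antigen Ki-67, had 2.90, 2.63, 2.66 and 2.85 in THIO+IL-4C, 5.06, 5.00, 5.24 and 5.14 in IL-4C, 0.10, -0.23 and -0.83 in THIO and 1.99, 1.04 and 1.69 in PBS. Top2a, the topoisomerase that untangles sister chromatids, had 0.70, 0.43, 0.52 and 0.56 in THIO+IL-4C, 2.41, 2.26, 2.56 and 2.58 in IL-4C, -2.92, -1.58 and -1.84 in THIO and -0.45, -1.24 and -0.48 in PBS. All 4 groups were separate for Mki67 and for Top2a, which differed by 3.54 and 3.17 between IL-4C and PBS, and the mitotic kinase genes Pbk and Melk differed by 4.34 and 2.83.

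Thioglycollate without IL-4 complex went with lower levels of many of the genes. In THIO against PBS 28 of the 50 were called lower and 2 higher (Mybl2 and Tpx2), while 24.2% of all genes were called lower and 20.2% higher, and the median difference was -0.92 against -0.09 over all genes. Every THIO array was below every PBS array for 24 of the genes (23.4% of all genes) and above for 1, Tpx2 (19.2%). Espl1 differed most, at -2.92 (SE 0.16, adjusted p = 7.7e-08), and was 7.56-fold lower. Ckap2, whose product stabilises spindle microtubules, differed by -1.95 (SE 0.15), Mki67 by -1.90 (SE 0.25), Kif2c, a microtubule depolymerase, by -1.87 (SE 0.39) and Ube2c by -1.72 (SE 0.26). A second probe of Kif2c, nearly as bright, stood at 0.03 (SE 0.15) and was not called. Other probes of Mad2l1, which was not called by its brightest, were called in opposite directions, at 2.33 and -0.69. By role, all 5 spindle assembly genes were called, Hmmr, Ckap2, Nusap1 and Prc1 lower and Tpx2 higher, while of the kinetochore genes Ndc80 (-1.24) and Cenpe (-1.04) were lower and the other 4 were not called. Tpx2, whose product nucleates spindle microtubules and activates Aurora A, had -0.40, -0.57 and -0.68 in THIO and -1.35, -2.15 and -1.22 in PBS, a difference of 1.03 (SE 0.21, adjusted p = 0.0026). Mybl2 differed by 1.62 (SE 0.56, adjusted p = 0.036), but its other probe was called lower, at -1.04.

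This comparison rests in part on THIO 1. Against the other THIO arrays, THIO 1 was above both for 23 genes, below both for 17 and between them for 10. It lay more than 1 log2 unit from their mean for 24 genes, or 48% of the set, as it did for 43.21% of all genes. Its sign against the PBS mean was opposite to theirs in 14 genes, among them Mybl2, Spc25, Cdca8, Ttk and Ccnb1. For Ttk the level of THIO 1 was -7.06, with -3.55 and -3.34 on the rest of the group, and for Kif18b it was -1.27, with -3.73 and -4.35. Among all genes tested, 6231 to 13876 were called in THIO against PBS when any 1 array was left out. A larger count of the set without THIO 1 is therefore not a stronger result for the set. Without THIO 1, where THIO and PBS share no slide, 31 genes of the set were called lower and 5 higher (Ttk, Cdca8, Tpx2, Spc25 and Mybl2). Under a slide block, which leaves THIO 1 as the array set against PBS, 20 were called lower and 2 higher (Tpx2 and Cenpa) with a median of -0.63. Ccnb1 (0.03) and Mybl2 (-0.12) then changed sign and were not called. Espl1 stood at -3.02 without THIO 1 and at -2.72 with the block, Ckap2 at -2.04 and -1.76, and Tpx2 at 0.95 and 1.17, each called in both fits.

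**Figure D3:**
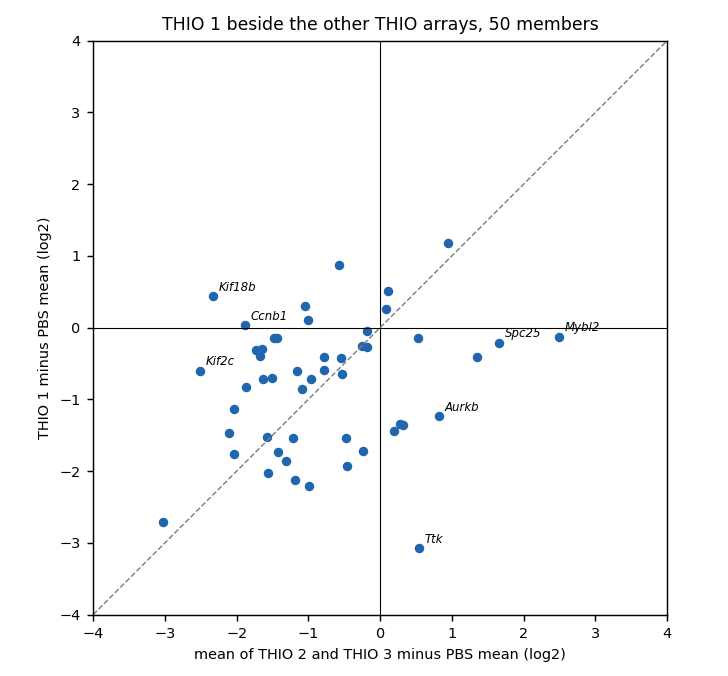
Difference of THIO 1 from the PBS mean (y axis) against the difference of the mean of THIO 2 and THIO 3 from the PBS mean (x axis), both log2, with 1 point per gene and a dashed line of equality. Points with large gaps are named; 14 of the 50 genes lie in the quadrants of opposite sign.

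IL-4 complex given with thioglycollate also raised the set. In THIO+IL-4C against THIO 41 of the 50 genes were called higher and 2 lower, where 16.2% of all genes were called higher and 23.1% lower. The median was 1.96, against 0.03 over all genes, and every THIO+IL-4C array was above every THIO array for 43 of the genes (21.8% of all genes) and below for 1, Pttg1 (22.7%). Birc5 rose most, 8.89-fold (3.15, SE 0.26, adjusted p = 1.9e-06), followed by Mki67 (3.08, SE 0.24), Ube2c (2.99, SE 0.25), Cdk1 (2.81, SE 0.26) and Bub1 (2.78, SE 0.26). All 5 genes of the cyclin and CDK1 group were called higher, as were 6 of 7 kinase and passenger complex genes, 7 of 9 kinesins, 4 of 5 spindle assembly genes, 4 of 6 kinetochore genes and all 3 cytokinesis genes. The 7 genes not called were Aurkb (1.94, SE 0.82), Kif18b (1.19, SE 0.54), Kif23 (0.26, SE 0.19), Tpx2 (0.50, SE 0.20), Cenpf (0.02, SE 0.59), Spc25 (0.92, SE 0.52) and Mybl2 (1.23, SE 0.53). Dimmer probes of Tpx2 (1.33) and Mybl2 (1.51) were called higher. Kif23 encodes a motor of the central spindle, and its arrays, at -1.26, -1.49, -1.51 and -1.51 in THIO+IL-4C and -1.77, -1.46 and -1.88 in THIO, overlapped. The genes called lower were those of securin and separase, Pttg1 at -0.96 (SE 0.12, adjusted p = 6.1e-05) and Espl1 at -0.44 (SE 0.15, adjusted p = 0.035). The dimmer probe of Pttg1 was not called (-0.39). Without THIO 1, with all arrays compared on slide 2, 41 genes were called higher and 1 lower. Kif18b was then called at 2.11, while Ccna2, at 1.20 (adjusted p = 0.045) with THIO 1, and Espl1 were not (adjusted p of 0.18 and 0.11). Over all genes, 6943 to 8991 were called in THIO+IL-4C against THIO when any 1 array was left out.

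Thioglycollate and the size of the response to IL-4 complex were compared by the interaction, the log2 difference of THIO+IL-4C from THIO minus that of IL-4C from PBS. It was negative for 49 of the 50 genes, with a median of -1.20 against -0.05 over all genes. Ccnb1 alone was positive, by its brightest probe (0.38, SE 0.53). Dimmer probes of Ccnb1 were negative, 1 called at -1.03 and the other not called at -1.27. The interaction was called for 23 genes, all negative, where 19.9% of all genes were called negative and 12.7% positive (4054 and 2588 genes). With normexp background correction 34 of the 50 were called negative and none positive, and over all genes the calls were 4034 negative and 4163 positive. A difference called in 1 of the IL-4 comparisons and not in the other, as for Kif23, Tpx2 and Cenpf, is tested only by this value. It was most negative for Tpx2 (-3.24, SE 0.28, adjusted p = 7.1e-06), which differed by 0.50 with thioglycollate and 3.75 without. Kif23 followed Ccna2 (-2.86, SE 0.61, adjusted p = 0.0037) at -2.79 (SE 0.27, adjusted p = 1.4e-05), and Cenpf (-2.65, SE 0.84), Nuf2 (-2.52, SE 0.44) and Kif11 (-2.39, SE 0.22) came next. By role, 6 of 9 kinesins and 5 of 6 kinetochore genes were called, while of the cyclin and CDK1 group Ccna2 alone and of the anaphase-promoting complex partners none was. Mki67 (-0.46, SE 0.33, adjusted p = 0.32), Birc5 (-0.45, SE 0.37) and Top2a (-0.50, SE 0.40) were not called. The dimmer probe of Nuf2, at -1.33, was not called. The second probe of Tpx2, dimmer than the first, stood at 1.54 and was not called. That probe differed by 1.33 with thioglycollate, called higher, and by -0.21 without, not called. Without THIO 1, or with slide as a block, 33 genes were called negative. Ccnb1 was then called positive by its brightest probe, at 1.02 (adjusted p = 0.00076). Both fits give the same values, since within slides the interaction sets THIO+IL-4C against THIO 2 and THIO 3 alone. Over all genes, 5728 to 8154 were called in the interaction when any 1 array was left out.

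**Figure D4:**
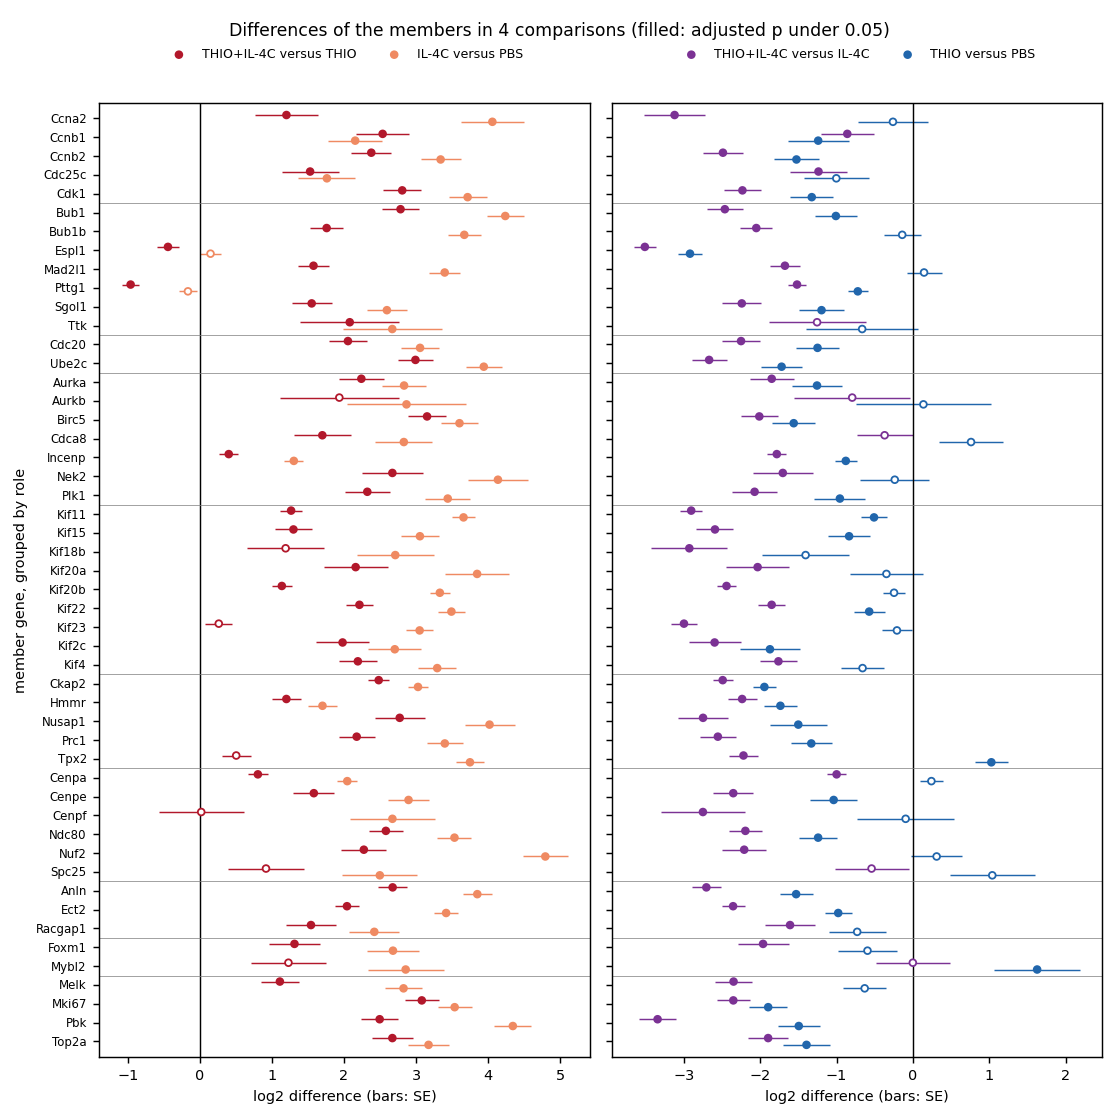
Log2 difference of each of the 50 genes with its SE (bars), grouped by role: left, THIO+IL-4C versus THIO and IL-4C versus PBS; right, THIO+IL-4C versus IL-4C and THIO versus PBS. Filled points passed an adjusted p under 0.05; for 49 genes the difference of IL-4C from PBS is the larger in the left panel, Ccnb1 being the exception. Each gene is shown by its brightest probe, and the dimmer probes of Ccnb1 had the larger difference in IL-4C versus PBS.

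Under IL-4 complex, the genes stood lower with thioglycollate than without. In THIO+IL-4C against IL-4C 45 of the 50 were called lower and none higher, where 42.2% of all genes were called lower and 27.9% higher, and every THIO+IL-4C array was below every IL-4C array for 49 of them (42.7% of all genes) and above for none (29.8%). The median was -2.23, against -0.21 over all genes. Espl1 was 11.4-fold lower (-3.51, SE 0.14, adjusted p = 5.2e-09), Pbk differed by -3.34 (SE 0.24), Ccna2 by -3.12 (SE 0.40) and Kif23 by -3.0 (SE 0.17). The genes that were not called were Ttk (-1.26), Aurkb (-0.80), Spc25 (-0.54), Cdca8 (-0.37) and Mybl2, at -0.00 with an SE of 0.49. Dimmer probes of 3 genes had the opposite sign to the brightest and were called higher, those of Tpx2 (2.41), Cdk1 (2.36) and Mad2l1 (2.33). Of the genes not called by their brightest probe, dimmer probes of Mybl2 (-2.09) and Cdca8 (-0.88) were called lower. These groups lie on different slides and are joined within slides through THIO 1 alone, so that array alone tells thioglycollate and slide apart here. With slide as a block the median was -1.98, and Ccnb1 stood at 1.05, against -0.86 without the block.

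THIO+IL-4C lay above PBS for most of the set. For 36 of the genes, Mki67, Cdk1, Plk1 and Birc5 among them, every THIO+IL-4C array was above every PBS array, as for 35.3% of all genes. For 4 (Incenp, Hmmr, Pttg1 and Espl1) every THIO+IL-4C array was below, as for 39.5% of all genes, and for 10 the groups overlapped, among them Ccna2, Foxm1 and Kif23. These groups differ in both treatments and in slide, and were not tested against each other. The comparisons above share arrays, the PBS arrays entering both comparisons with PBS and the THIO arrays both comparisons with THIO, so their values are not independent of each other.

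Other genes of mitosis and of DNA replication rose with IL-4 complex too. Of 53 further mitosis genes 51 were called higher in IL-4C than in PBS and none lower, with a median of 3.02, Depdc1a (4.95, SE 0.46) and Shcbp1 (4.41, SE 0.50) being highest. In THIO against PBS 20 of them were lower and 4 higher, in THIO+IL-4C against THIO 37 were higher and 1 lower, and the interaction was called negative for 28 and positive for none. Without THIO 1 these counts were 25 lower and 11 higher, 39 higher and 2 lower, and 31 negative. Of 24 DNA replication genes, which act earlier, in S phase, 23 rose in IL-4C with a median of 2.17, Rrm2, a subunit of ribonucleotide reductase, standing at 4.83 (SE 0.36) and Tk1, thymidine kinase, at 3.30 (SE 0.43). In THIO against PBS 7 of these were lower and 5 higher, shares close to those of all genes. In THIO+IL-4C against THIO 19 rose and 1 fell, with a median of 1.06, and the interaction was called negative for 12 and positive for 1, Cdc6 (0.91), which licenses origins. Without THIO 1 these counts were 9 lower and 5 higher, 20 higher and 1 lower, and 13 negative with none positive. Core subunits and partners of the anaphase-promoting complex, most of which are present throughout the cycle, were less uniform. Of these 14 genes 4 rose in IL-4C and 1 fell, against 16.9% and 15.3% of all genes. Their median was 0.19, the largest being the ubiquitin-conjugating enzyme gene Ube2s at 2.26 (SE 0.12).

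Genes of entry into the cycle and of its control were mixed. In IL-4C against PBS 16.9% of all genes were called higher and 15.3% lower, beside which the counts of these short lists stand. Of 15 genes of G1 and S phase entry 10 rose in IL-4C and 1 fell, with E2f2 at 3.62 (SE 0.14), Ccne2, cyclin E2, at 3.30 (SE 0.29) and Ccnd2, cyclin D2, at -2.57 (SE 0.42, adjusted p = 0.0005). In THIO+IL-4C against THIO Ccnd2 was higher by 3.69 (SE 0.42), and its interaction of 6.25 (SE 0.60, adjusted p = 1.4e-05) had the opposite sign to those of the 23 called mitosis genes above. Ccnd1, cyclin D1, differed by -4.23 (SE 0.32) in THIO from PBS and Ccnd3 by -2.72 (SE 0.12). Without THIO 1 the Ccnd2 interaction was 5.85, and the differences of THIO from PBS were -3.94 for Ccnd1 and -2.84 for Ccnd3, all called. Among 12 genes of the DREAM and MuvB complexes, which hold or release the mitosis genes, 5 rose in IL-4C and none fell, with Rbl1 at 2.41 (SE 0.15) and Tfdp1 at 1.66 (SE 0.13). Of 16 cell cycle inhibitors 5 rose and 5 fell in IL-4C, with the stress gene Gadd45g at 3.32 (SE 0.30), Cdkn1a, p21, at 1.42 (SE 0.18), Cdkn1c, p57, at -2.87 (SE 0.35) and Cdkn2b, p15, at -2.57 (SE 0.33). In THIO+IL-4C against THIO Cdkn1c differed by -5.64 (SE 0.35), and by -5.32 without THIO 1. Of 12 genes of macrophage growth control 4 rose and 4 fell in IL-4C, with Klf4 at 2.89 (SE 0.19).

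**Figure D5:**
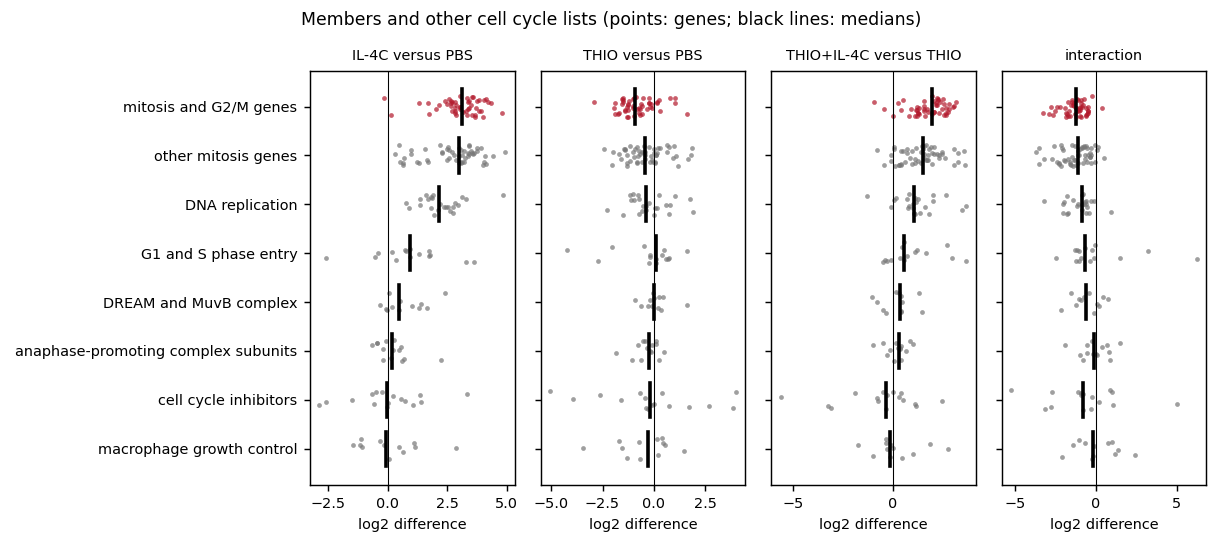
Log2 differences (x axis) of the 50 genes, in red, and of 7 other cell cycle lists, in grey, in 4 comparisons; points are genes and black lines are medians, and each panel has its own x axis. The medians of the further mitosis genes, 3.02, and of the DNA replication genes, 2.17, lie nearest to that of the 50 genes, 3.11, in IL-4C versus PBS.

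Markers of other cells moved with the groups too. Of all genes 16.9% were called higher and 15.3% lower in IL-4C against PBS, and 20.2% and 24.2% in THIO against PBS. In THIO+IL-4C against IL-4C these shares were 27.9% and 42.2%. The log2 summed level of 8 B cell genes was 1.08 to 1.14 in THIO+IL-4C, 1.61 to 1.79 in IL-4C, 1.23 to 1.43 in THIO and 3.26 to 4.15 in PBS, and of these genes 4 were lower and none higher in IL-4C than in PBS. That of 7 T and NK cell genes was 2.74 to 3.20 in THIO+IL-4C, 2.30 to 2.45 in IL-4C, 2.52 to 2.78 in THIO and 2.94 to 3.17 in PBS, with 4 lower in IL-4C than in PBS. For 7 neutrophil genes it was 3.80 to 4.39 in THIO+IL-4C, 1.67 to 2.70 in IL-4C, 3.09 to 4.10 in THIO and 1.89 to 2.20 in PBS. For 8 mesothelial and stromal genes, of which 5 were higher in THIO than in PBS, it was 0.02 to 0.34 in THIO+IL-4C, -0.04 to 0.13 in IL-4C, 0.81 to 1.64 in THIO and 0.46 to 0.77 in PBS. For 6 mast cell genes it was 0.56 to 0.98 in THIO+IL-4C, 1.65 to 1.81 in IL-4C, 0.93 to 2.14 in THIO and 2.64 to 2.93 in PBS, and 3 were lower in IL-4C than in PBS. For 6 dendritic cell genes it was 5.97 to 6.13 in THIO+IL-4C, 5.73 to 5.90 in IL-4C, 5.74 to 6.30 in THIO and 6.37 to 6.85 in PBS. Such sums follow the brightest genes. The dendritic sum lay close to the level of Siglech alone, which averaged 5.98 in THIO+IL-4C and 5.79 in IL-4C. Between these groups 3 of the 6 genes were called higher in THIO+IL-4C, Flt3 by 4.29, and 1 lower. For 6 eosinophil genes the summed level was 1.15 to 1.87 in THIO+IL-4C, 1.04 to 1.20 in IL-4C, 0.60 to 1.39 in THIO and 1.12 to 1.29 in PBS. In THIO against PBS 2 of the eosinophil genes were called higher, Siglecf (3.63) and Epx (2.57), and 3 lower. Similar sums thus do not show that the single genes were unchanged. The 7 general macrophage genes summed to 7.09 to 7.33 in THIO+IL-4C, 7.90 to 7.95 in IL-4C, 7.80 to 8.25 in THIO and 9.48 to 9.70 in PBS. Of these 5 were called lower in IL-4C than in PBS, Lyz2 (-7.28), Fcgr1 (-6.70), Cd14 (-2.80), Csf1r (-1.13) and Adgre1 (-0.27), while Itgam and Mertk were not called. Marker genes of resident peritoneal macrophages, 8 in all, stood at 3.47 to 3.74 in THIO+IL-4C, 8.19 to 8.33 in IL-4C, 2.47 to 2.75 in THIO and 9.25 to 9.39 in PBS. Among these lists Wt1 was well above background on no array of THIO+IL-4C, IL-4C or PBS, Col1a1 and Epx on none of PBS and Cd3g on none of IL-4C. The part of other cells in the levels of the 50 genes was not tested.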

How the data were processed

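The authors deposited 1 scanner table per array, with spot intensities of a single dye (Cy3), and a table of their own log2 values. Per the file headers the intensities come from Agilent Feature Extraction 11.0.1.1; the submitters' processing notes name version 11.5 and limma. Against each array's own log2 median signals the authors' deposited log2 values had correlations of 0.989 to 0.995 and slopes of 0.991 to 0.996, which sets their scale and direction; each column has a median of 9.23, and how background was treated stays unknown. They served as an alternative.

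Control spots (3671 of 62976) and 113 to 165 outlier spots per array were left out, and no spot was saturated. Probes were named by accession through RefSeq (GRCm38.p6): 27235 of 55681 had 1 symbol and 28446 none. Levels are log2 of the processed signal minus each array's upper quartile. Spots of a probe were averaged. Probes well above background on at least 3 arrays were kept, the brightest probe standing for its gene. Of the 50 genes 15 had further probes, 19 in all, of which 2 had the opposite sign in IL-4C against PBS, 9 in THIO against PBS, 1 in THIO+IL-4C against THIO, 3 in THIO+IL-4C against IL-4C and 8 in the interaction. All 14 arrays entered 1 limma fit (3.58.1, R 4.3.3; lmFit, eBayes) with a mean per group, tested two-sided with Benjamini-Hochberg adjustment over 20343 genes at 0.05; this names every adjusted p. On simulated data for IL-4C versus PBS (20159 genes) 44% of log2 changes of 1 and 65% of changes of 2 were recovered with 8 false calls. Only 100 genes were changed at each size, far fewer than were called in the data, so these shares need not hold there. The number of arrays limits the precision.

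The 50 genes and all gene lists were chosen with earlier results of these data known. All 50 could be named; 19 well-known ones are given per array, with the highest and lowest of each comparison and called genes that went against the majority, and up to 2 rises and falls per other list. Replicate numbers of the titles do not pair arrays: same-numbered arrays deviated together at r of -0.446 to 0.368, over 0.1 in 4 of 19 pairs. The alternatives were other scalings, background correction, filters, probe rules, slide and replicate blocks, array weights, fewer groups and leaving out each array. The alternative background correction (normexp, offset 50) used the median spot signal, since no mean signal column was found. A change of sign between values that both missed the threshold is not counted as a reversal.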

Additional observations from a re-analysis of the deposited data

Results flagged for a closer look

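In the groups of 4 arrays, 3 of 102 sets of values (the 50 genes and their median, in each group) had an array far from the others, where chance gives about 1 in 20. Kif23 was at -1.26 on THIO+IL-4C 1, against -1.49 to -1.51 on the other THIO+IL-4C arrays. Prc1 was at 3.31 on IL-4C 2, against 3.53 to 3.56 on the rest, and Ube2c at 4.09 on IL-4C 3, against 3.87 to 3.89. These gaps are small beside the differences between the groups.

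The effect of IL-4 complex differed with and without thioglycollate, by the interaction term, for 23 genes. In 22 of them the rise was smaller in thioglycollate mice, and Pttg1 was lower by more there. The values were -3.24 for Tpx2, -2.86 for Ccna2, -2.79 for Kif23, -2.65 for Cenpf, -2.52 for Nuf2, -2.39 for Kif11 and -2.19 for Kif20b. Dimmer probes of Tpx2 (1.54), Nuf2 (-1.33), Mad2l1 (0.002 and -0.66) and Pttg1 (0.53) were not called. That of Incenp was called, at -0.82. Bub1b stood at -1.91, Pbk at -1.85, Mad2l1 at -1.82, Kif15 at -1.76, Melk at -1.72, Bub1 at -1.45, Ect2 at -1.38, Cenpe at -1.31, Kif22 at -1.28, Cenpa at -1.24, Prc1 at -1.22, Anln at -1.17 and Kif4 at -1.10. The smallest were -0.95 for Ndc80, -0.90 for Incenp and -0.80 for Pttg1. Pttg1 was called lower with IL-4 complex in thioglycollate mice (-0.96) and was not called without thioglycollate (-0.17).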

How the results depend on the processing

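The rise in IL-4C over PBS was called for 47 to 48 of the 50 genes when any array was left out, and for 48 or 49 under each scaling. In THIO versus PBS, with 9052 genes called, 2 of the 50 higher and 28 lower, slide as a block gave 6017 genes, with Ccnb1 at 0.035 and Mybl2 at -0.124; array weights gave 15096 genes and 5 higher, with Ttk at 0.606; using only the groups compared gave 3919 genes, 0 higher and 11 lower; the mean of all probes and the replicate block each gave 1 higher. Leaving out 1 array gave 6231 to 13876 genes, 1 to 5 higher and 21 to 31 lower, with Ttk at -1.321 to 0.538 and Cenpf at -0.594 to 0.884. In THIO+IL-4C versus THIO the median of 1.96 was 1.605 with normexp and 1.447 in the authors' table, 1 gene was lower with the slide block or only the groups compared, and without 1 array 1 to 3 were lower, with Cenpf at -0.962 to 0.515. In THIO+IL-4C versus IL-4C the median was -2.064 with quantile normalization, -2.477 in the authors' table and -1.982 with the slide block, which called 5427 genes instead of 14250, with 1 of the 50 higher, Ccnb1 at 1.054 and Cdc25c at 0.053; the mean of probes put Tpx2 at 0.094. The interaction was called lower for 23 of the 50, for 46 in the authors' table (median -1.604) and for 38, with 1 higher, under array weights; the slide block gave 1 higher, and leaving out 1 array 0 to 1 higher and 19 to 33 lower. Normexp moved the median of all genes by -0.16 in IL-4C versus PBS and 0.16 in the interaction, and the authors' table by -0.22 in THIO+IL-4C versus IL-4C and -0.15 in the interaction; the median of the 50 minus that of all genes kept its sign under all 3 scalings in every comparison. The replicate block, whose numbers do not pair arrays, gave 5792 genes called in IL-4C versus PBS against 6546. The cause of these changes was not tested. Aurkb, Ttk and Cenpf were not well above background on every THIO array, which limits their values.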
